A study of Homo sapiens with 22 samples.

Results

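The genes described here are 37 genes of the hypoxia response and of glycolysis, read in neuroblastoma cells in which transcripts of the long non-coding RNA gene CASC15 or the transcription factor gene SOX9 had been knocked down. They were taken by symbol, and each matched 1 row of the 63677 genes of each table. Of the 37, 17 belong to the hypoxia response and 20 carry glucose into the cell or break it down. SH-SY5Y, a neuroblastoma line of adrenergic character, stably carried lentiviral shRNAs under puromycin selection: a scrambled control, sh1 or sh2 against transcript CASC15-003 (called sh003) or sh1 or sh2 against CASC15-004 (called sh004). Monolayers were collected at day 0 in 10% serum (3 control, 3 sh003 and 2 sh004 libraries) and after 7 days of retinoic acid, at a dose the labels give as 10 mM (2 control, 3 sh003 and 2 sh004 libraries). On each day the 3 sh003 libraries were 1 of sh1 and 2 of sh2, and the 2 sh004 libraries were 1 of each shRNA. By the titles the sh003 sh1 library was of batch 3 at day 0 and of batch 2 at day 7. The labels give the serum of day 7 as 1% in one place and 10% in another. Spheres, grown in sphere forming medium of unstated composition, gave 1 control, 2 sh003 and 2 sh004 libraries, each knockdown library with a different shRNA. KELLY, another neuroblastoma line, was left undifferentiated and given siRNA, against SOX9 in 1 library and a control in the other. No label says that oxygen was lowered in any culture, and none says whether libraries of a group came from separate cultures, so p-values measure the spread between these libraries only.

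In the cell, HIF transcription factors are made all the time and destroyed while oxygen is plentiful: EGLN enzymes hydroxylate the alpha subunits (HIF1A, EPAS1), and VHL then marks them for breakdown. When oxygen falls, the alpha subunit pairs with ARNT and binds DNA at a short core, written ACGTG or GCGTG. Its targets make blood vessels grow (VEGFA), move glucose in (SLC2A1), speed its breakdown to lactate (HK2, PGK1, LDHA), keep pyruvate from becoming acetyl-CoA (PDK1) and remove mitochondria (BNIP3). Such genes are known to be switched on in the inner cells of tumours and of tumour spheres, and many also answer to MYC, growth factors and other stress.

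The shRNA targets are shown because every comparison of SH-SY5Y libraries rests on them. Each has 21 bases and matched CASC15 and no other gene exactly in the GENCODE release 29 transcripts, on the plus strand of chromosome 6 (GRCh38).
sh003 sh1: ctagcactgacctccttcatt
sh003 sh2: ctttccatcagccaacaatat
sh004 sh1: caggctgttcccagggattta
sh004 sh2: taggaataccttacatccaat
The sh003 sites lie at chr6:21668702-21668722 and chr6:21668743-21668763, both in exon 3 of one GENCODE transcript and exon 2 of another. The sh004 sites lie at chr6:22146977-22146997 and chr6:22146898-22146918, both in exon 1 of a different pair of transcripts. The longest run that a target shared with any transcript of a member was 10 or 11 bases.

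Promoters of 5 members are shown because the HIF core can be looked for in them. LDHA, HK2, PGK1 and PFKL differed between sphere groups, and PDK1 is shown for its sequence only. RefSeq (GRCh38.p14) gave 56 promoters for 33 of the 37 members, from 250 bases before to 50 after the start. ACGTG, searched on both strands, stood in 25 of the 56 (44.6%) against 21.4% of 35116 promoters in the table. GCGTG stood in 39.3% against 36.5%. Counted by gene over all its promoters, ACGTG was found for 11 of the 15 members with an entry that were lower in sh004 than in sh003 spheres, for 8 of 15 tested members that were not called, for 1 of the 2 that were higher (ANGPTL4, at -234), and for 24.9% of all genes. The members' promoters were also richer in G and C (median 68.3% against 58.7%). A gene with several promoters has more chances of a match, and members had 56 promoters for 33 genes against 35116 for 27305. The part of either in the counts was not tested. The 15 include CA12 and PDK1, which passed the sphere filter only with the sh003 libraries, where they are high, so their place in these counts supports nothing. Below are the 250 bases before the start of LDHA, HK2, PDK1 and PGK1, with each stretch that holds ACGTG on either strand in capitals, and of PFKL, which was higher in sh004 and has no such stretch in this window. Where a gene has several starts the one with most matches is shown. GCGTG, the other form of the core, is left unmarked, and the PFKL window holds 1 such match. SLC2A1, KDM3A, PFKFB4 and CA12, called lower without an ACGTG match, are not shown.
LDHA: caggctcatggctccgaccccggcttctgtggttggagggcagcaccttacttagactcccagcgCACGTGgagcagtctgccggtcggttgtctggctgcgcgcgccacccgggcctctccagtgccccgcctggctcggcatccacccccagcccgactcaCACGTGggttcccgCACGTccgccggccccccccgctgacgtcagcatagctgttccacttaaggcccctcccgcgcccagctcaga
HK2: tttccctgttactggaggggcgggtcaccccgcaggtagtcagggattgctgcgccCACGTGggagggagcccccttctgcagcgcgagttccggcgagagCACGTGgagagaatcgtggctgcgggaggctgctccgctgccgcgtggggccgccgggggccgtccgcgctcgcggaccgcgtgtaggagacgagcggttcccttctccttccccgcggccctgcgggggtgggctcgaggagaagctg
PDK1: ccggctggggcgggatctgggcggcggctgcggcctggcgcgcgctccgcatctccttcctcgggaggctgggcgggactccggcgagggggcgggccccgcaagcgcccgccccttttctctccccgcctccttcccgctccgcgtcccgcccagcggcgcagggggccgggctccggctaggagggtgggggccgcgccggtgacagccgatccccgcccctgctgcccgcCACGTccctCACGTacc
PGK1: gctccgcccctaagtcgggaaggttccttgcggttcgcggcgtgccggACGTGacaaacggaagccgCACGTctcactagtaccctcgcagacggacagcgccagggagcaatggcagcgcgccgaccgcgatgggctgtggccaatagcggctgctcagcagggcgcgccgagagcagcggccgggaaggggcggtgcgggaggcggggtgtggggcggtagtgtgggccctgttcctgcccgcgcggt
PFKL: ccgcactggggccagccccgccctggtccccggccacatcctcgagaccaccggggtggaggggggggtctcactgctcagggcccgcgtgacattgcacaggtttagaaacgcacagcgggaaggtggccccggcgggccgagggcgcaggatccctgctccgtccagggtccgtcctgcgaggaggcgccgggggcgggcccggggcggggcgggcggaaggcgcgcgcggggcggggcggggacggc
They lie on the plus strand at chr11:18394313-18394562 (LDHA), chr2:74834920-74835169 (HK2), chr2:172555840-172556089 (PDK1), chrX:78103998-78104247 (PGK1) and chr21:44299803-44300052 (PFKL). In LDHA the stretches begin at -185, -87 and -73 from the start, and 2 of the 3 are the palindrome CACGTG, which reads the same on both strands and is also a MYC-type E-box. In HK2 both are palindromes, at -194 and -149. PDK1 carries its pair at -17 and -8 and PGK1 at -202 and -183. A match is a stretch of letters, not a measured site.

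The libraries held 11.9 to 62.1 M assigned reads, and levels are RPKM (reads per kilobase of gene and M assigned reads). CASC15, counted over all its transcripts, lay at 1.31 to 2.38 RPKM in control, 1.57 to 2.65 in sh003 and 1.14 to 1.16 in sh004 libraries at day 0, and at 2.15, 1.63 to 2.46 and 1.59 to 1.60 in the spheres, so the gene total was not below control in every sh003 library and does not check the knockdown of single transcripts. In KELLY SOX9 stood at 5.61 RPKM under control siRNA and 0.974 under SOX9 siRNA. Adrenergic markers summed to 542 to 1509 RPKM over the SH-SY5Y libraries, while endothelial and leukocyte markers summed to under 1 RPKM in each, so cells of those types were at or near 0. The batch 1 monolayers stood apart: PGAM1, a glycolytic mutase with 13 named pseudogenes, lay at 5.27 to 8.45 RPKM in the 4 batch 1 libraries and at 45.5 to 86.0 in the other 11. Of the members, 13 have at least 1 pseudogene named after them (39 for BNIP3, 62 for GAPDH). In GENCODE release 29, 19 share exon sequence with a gene on the opposite strand. Exons of 6 overlap another gene on the same strand: SLC2A1, GPI, PFKP, PFKFB4, ALDOA and PGK1. The counting's rule on strand and shared reads is not given in the sources used here, so these genes' levels are uncertain to that extent. The tables were normalised separately, and levels set across them here are side by side without a test.

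In spheres, more of the hypoxia and glucose genes were called lower than higher in sh004 against sh003. Of 35 members tested, 17 were lower and 2 higher in sh004 than in sh003 spheres (limma, Benjamini-Hochberg adjusted p under 0.05 over all 14711 genes). Among the lower genes were the growth factor VEGFA, the mitochondrial genes BNIP3 and BNIP3L and the glucose transporter SLC2A1. The lower enzymes of the glucose path were HK2, PFKM, PFKP, PFKFB3, PFKFB4, PGK1, ENO2 and LDHA. HK1, GPI, ALDOA, ALDOC, TPI1, GAPDH, PGAM1, ENO1 and PKM were not called. Many genes of every kind differed in this comparison, 23.1% lower and 16.8% higher, and the members' counts are to be read against that. The median member difference was -0.96 on the log2 scale and that of all genes -0.13, not matched for gene length, which is taken up below. Groups did not overlap for 27 of the 35 members, a share near the 75.9% of all genes. Both sh003 spheres lay above all 3 other spheres for 21 of the 35 members, where 30.8% of all genes did. They lay below all 3 for 4 (ANGPTL4, TPI1, ENO1 and PKM), where 25.5% of all genes did. The other 2 members, CA9 (pH control) and SLC2A3 (a glucose transporter), did not reach 1 RPKM in 2 spheres and were not tested. CA12 and PDK1, counted among the 17, passed that filter only with the sh003 libraries, where they are high. Their calls therefore support nothing.

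**Figure D1:**
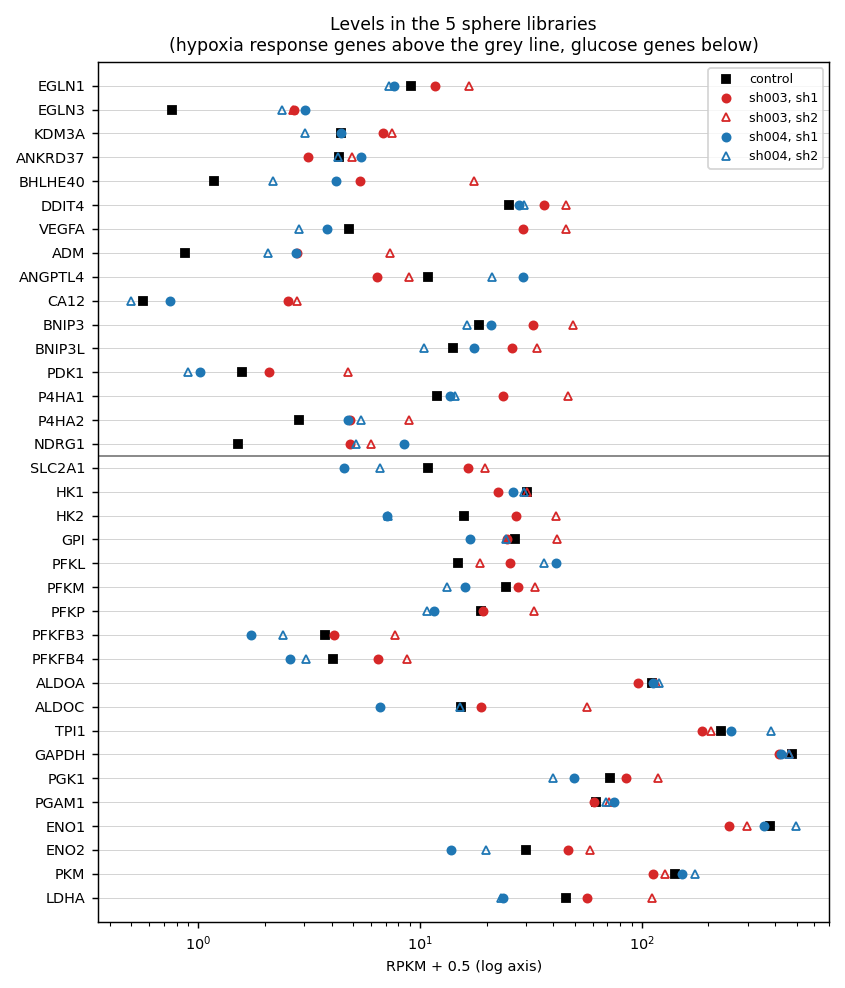
RPKM + 0.5 on a log axis for the 35 tested members in the 5 sphere libraries, 1 point per library. VEGFA, HK2 and LDHA are highest in the sh003 libraries and lowest in the sh004 libraries, while PFKL and ANGPTL4 are highest in the sh004 libraries.

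VEGFA, the main growth factor for blood vessels, showed the widest gap. It lay at 4.30 RPKM in the control sphere, 28.5 and 44.9 in sh003 sh1 and sh2, and 3.32 and 2.35 in sh004 sh1 and sh2. The sh003 spheres were high and the control lay beside the sh004 spheres, which were -3.46 ± 0.29 (log2, SE) from the sh003 pair (adjusted p = 0.00756). ANGPTL4, a secreted regulator of lipoprotein lipase, went the other way, with 10.3 in control, 5.93 and 8.40 in sh003 and 28.6 and 20.6 in sh004, a difference of 1.71 ± 0.26 (adjusted p = 0.00893). ADM, the vessel-dilating peptide adrenomedullin, lay at 0.370 in control, 2.30 and 6.80 in sh003 and 2.26 and 1.57 in sh004, and did not pass the test between the knockdowns (adjusted p = 0.166).

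Among the genes that sense oxygen or feed back on HIF, EGLN1 and KDM3A were called lower in sh004. EGLN1, the main HIF hydroxylase, stood at 8.60 RPKM in control, 11.2 and 16.1 in sh003 and 7.17 and 6.77 in sh004 (log2 difference -0.90 ± 0.24, adjusted p = 0.0282). The histone demethylase gene KDM3A stood at 3.90 in control, 6.29 and 6.97 in sh003 and 3.90 and 2.54 in sh004 (-0.96 ± 0.26, adjusted p = 0.0295). In both, the sh003 libraries lay above the other 3. EGLN3, a hydroxylase strongly induced by HIF, read differently: 0.259 in control against 2.22 and 2.19 in sh003 and 2.54 and 1.90 in sh004, so that the control was low and the knockdowns overlapped. NDRG1, a stress protein, had the same order, with 1.01 in control and 4.33 to 7.94 in the 4 knockdown spheres. BHLHE40, a clock-linked repressor, lay at 0.685 in control, 4.89 and 17.1 in sh003 and 3.67 and 1.68 in sh004. Its groups did not overlap, but it missed the threshold between the knockdowns (-1.69 ± 0.59, adjusted p = 0.0627). DDIT4, an mTOR inhibitor, lay at 24.7 in control, 35.7 and 45.1 in sh003 and 27.6 and 29.1 in sh004 and was not called (adjusted p = 0.0902), nor was ANKRD37, whose groups overlapped between 2.63 and 4.91.

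Of the members that act on mitochondria and collagen, 4 of 5 were called lower in sh004, PDK1 among them with the limit given above. The mitophagy receptor BNIP3 lay at 18.0 RPKM in control, 31.8 and 48.6 in sh003 and 20.3 and 15.8 in sh004 (-1.11 ± 0.26, adjusted p = 0.0213). Its relative BNIP3L lay at 13.6, then 25.6 and 33.1, then 17.0 and 9.98 (-1.13 ± 0.29, adjusted p = 0.0272). PDK1, the kinase that shuts pyruvate dehydrogenase, lay at 1.07 in control, 1.59 and 4.23 in sh003 and 0.521 and 0.398 in sh004. It is given as levels only. The control lay between the knockdowns for PDK1, and sh003 sh2 stood well above sh1. CA12, a membrane carbonic anhydrase that exports acid, lay at 0.0634 in control, 2.05 and 2.28 in sh003 and 0.247 and 0 in sh004, given as levels only. P4HA1, a collagen prolyl hydroxylase, lay at 11.4, then 23.3 and 46.2, then 13.2 and 13.9 (-1.25 ± 0.33, adjusted p = 0.0286). The related gene P4HA2, at 2.34, 4.34 and 8.45, and 4.26 and 4.92, was not called.

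Along the glucose path the difference fell on particular enzymes. SLC2A1, the basal glucose transporter, lay at 10.3 RPKM in control, 16.0 and 19.2 in sh003 and 4.05 and 6.14 in sh004 (-1.72 ± 0.25, adjusted p = 0.00885). HK2, the inducible hexokinase of the first step, lay at 15.4, then 26.7 and 40.7, then 6.57 and 6.72 (-2.23 ± 0.25, adjusted p = 0.00867). For both genes the control lay between the knockdowns. HK1, the housekeeping hexokinase, showed 29.8 in control, 21.9 and 29.8 in sh003 and 25.8 and 29.1 in sh004, with overlapping groups.

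At the phosphofructokinase step, the committed step of glycolysis, the isozymes parted. PFKM lay at 23.9 RPKM in control, 27.3 and 32.6 in sh003 and 15.4 and 12.8 in sh004 (-1.06 ± 0.20, adjusted p = 0.0124), although on the deposited sphere values, described below, its sign turned. PFKP lay at 18.3, then 18.7 and 32.2, then 11.1 and 10.2 (-1.17 ± 0.28, adjusted p = 0.0228). PFKL, the liver-type subunit, lay at 14.4, then 24.9 and 18.2, then 40.8 and 35.8, and was the higher one in sh004 (0.83 ± 0.22, adjusted p = 0.0295). PFKL thus made up 60.6 and 60.8% of summed phosphofructokinase RPKM in the sh004 spheres, against 35.1 and 21.9% in sh003 and 25.4% in control. The genes of the enzymes that make its activator fructose 2,6-bisphosphate went with PFKM: PFKFB3 lay at 3.23, 3.61 and 7.23, and 1.23 and 1.92 (-1.46 ± 0.37, adjusted p = 0.0250), and PFKFB4 at 3.56, 5.99 and 8.28, and 2.09 and 2.55 (-1.42 ± 0.25, adjusted p = 0.0107).

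Further down, PGK1, which makes the first ATP of the pathway, lay at 71.4 RPKM in control, 84.6 and 117 in sh003 and 49.0 and 39.5 in sh004 (-1.17 ± 0.23, adjusted p = 0.0137). ENO2, the neuronal enolase, lay at 29.5, then 45.8 and 57.7, then 13.3 and 19.3 (-1.65 ± 0.25, adjusted p = 0.00893). LDHA, which turns pyruvate to lactate, lay at 45.0, then 56.1 and 111, then 23.1 and 22.8 (-1.76 ± 0.33, adjusted p = 0.0116). In all 3 the control lay between the knockdowns. ALDOC, the brain aldolase, lay at 14.9, then 18.3 and 55.9, then 6.12 and 14.7, wide within each pair, and was not called (adjusted p = 0.0618). Other enzymes were not called: ALDOA, GAPDH and PGAM1 had differences of 0.13, 0.01 and 0.13 with overlapping groups. TPI1, ENO1 and PKM had 0.67, 0.63 and 0.44, all uncalled, with both sh003 libraries below the 3 others. GPI was not called (-0.65 ± 0.32, adjusted p = 0.140). As shares, HK2 was 54.9 and 57.8% of hexokinase 1 and 2 RPKM in sh003, 20.3 and 18.8% in sh004 and 34.0% in control, and ENO2 was 15.6 and 16.3% of enolase 1 and 2 in sh003, 3.59 and 3.75% in sh004 and 7.26% in control.

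**Figure D2:**
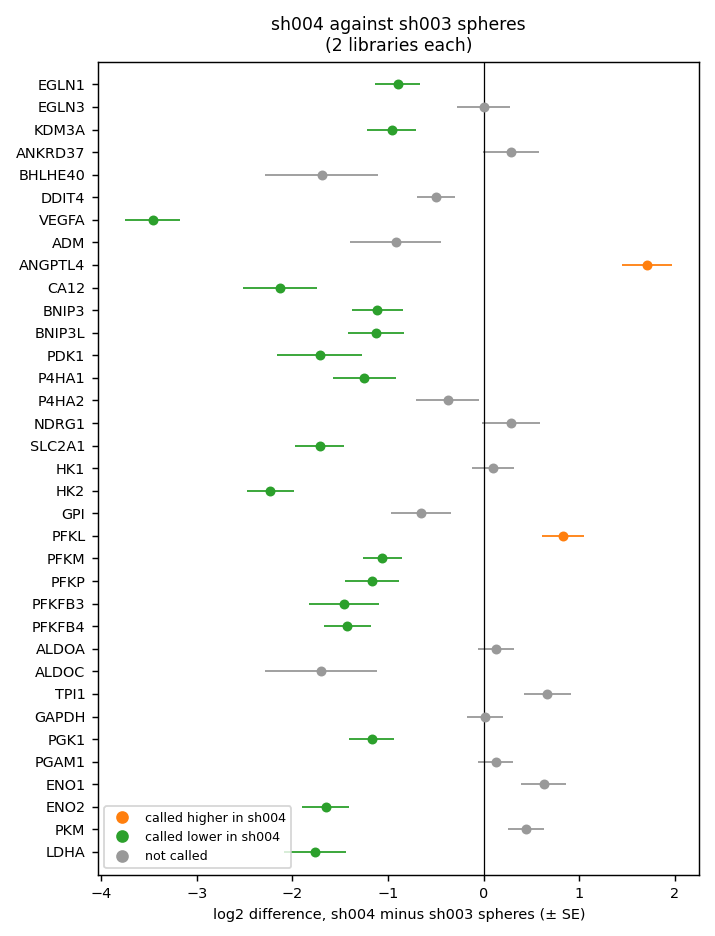
log2 difference of RPKM + 0.5 between sh004 and sh003 spheres with its SE from limma, for the 35 tested members. The 17 called lower reach from -0.90 for EGLN1 to -3.46 for VEGFA, and the 2 called higher are PFKL at 0.83 and ANGPTL4 at 1.71. CA12 and PDK1 passed the filter only with the sh003 libraries, where they are high.

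The sphere calls rest on few libraries and on the scaling. Without sh003 sh2, or without sh004 sh2, no member was called, and no gene at all. Without sh004 sh1, 8 members were called, and without sh003 sh1, 20. The sh003 sh2 sphere was the highest of the 5 for 23 of the 35 members (31.9% of all genes) and lay above sh1 for 33 of 35 (52.2% of all genes), so the sh003 pair itself differed, by a median of 0.44 among members and 0.02 among all genes. The deposited sphere values divide reads by totals that rotate from gene to gene, and on them 1 member was called, and on recomputed values without the filter on low genes none was. Differences also ran with gene length: with genes cut into 4 classes of equal size by length, the median over all genes was 0.41 in the shortest (to 2249 bases) and -0.65 in the longest (from 6512 bases), and 12 of the 35 members lie in the longest and 11 in the next. From the shortest class to the longest, the member median was -0.80 (2 members), 0.07 (10), -1.42 (11) and -0.78 (12). The medians of all genes beside them were 0.41, 0.11, -0.30 and -0.65. Members thus lay near genes of like length in the second and the longest class, and below them in the other classes. The part of length in the members' difference was not tested beyond removing the trend. With that trend removed, a step added after the data were seen, 3 members were called higher (ANGPTL4, PFKL and PKM) and 13 lower.

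Against the control sphere no member was called in either knockdown. The limma fit found 0 of 35 in sh003 (0% of all genes) and 0 in sh004 (0.129% of all genes). At an unadjusted p under 0.05 there were 14 and 9, and voom on recovered reads called none. With a single control library, 81.9% of all genes had non-overlapping groups in sh003 against control and 81.2% in sh004 against control, so the members' 31 and 29 of 35 carry little. The median member difference from control was 0.69 in sh003 and -0.06 in sh004, beside 0.00 and -0.16 over all genes. Both comparisons share that control, which was the lowest of the 5 spheres for 8 of the 35 members (10.3% of all genes): EGLN3, ADM, BHLHE40, NDRG1, DDIT4, P4HA1, P4HA2 and PFKL. The differences of the first 4 from control were 1.83, 2.38, 3.04 and 1.84 in sh003 and 1.83, 1.46, 1.35 and 2.13 in sh004, with adjusted p from 0.10 to 0.32.

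Other genes of the pathway were read from lists beside the members. Of 14 HIF subunits and controllers, 13 were tested in spheres, with 3 lower and 4 higher in sh004 than in sh003. The share lower was near the 23.1% of all genes, and the share higher lay above their 16.8%. EPAS1, the HIF-2 alpha subunit, lay at 13.4 RPKM in control, 45.2 and 55.8 in sh003 and 7.47 and 8.62 in sh004 (-2.57 ± 0.20, adjusted p = 0.0076). HIF1A lay at 26.5, then 37.9 and 44.7, then 23.1 and 14.4 (-1.15 ± 0.27, adjusted p = 0.0198), and their partner ARNT was lower by -1.19. The 4 higher were EGLN2, USP20, RBX1 and ELOB, an oxygen sensor, a deubiquitinase and subunits of the VHL ligase. Of 32 other hypoxia targets, 28 were tested, with 12 lower, among them AK4 (-2.21), ERO1A (-2.05) and MXI1 (-1.99), and 3 higher (NARF, CXCR4 and HMOX1). Of 28 oxidative phosphorylation genes, 9 were higher, a share above the 16.8% of all genes, and 6 lower, near their 23.1%. Of 8 amino acid stress genes (ATF4 and its targets), 3 were higher, ATF4, DDIT3 and PHGDH, and none lower. Of the 10 proliferation genes, 6 were lower in sh004 and none higher. The 5 fibroblast markers summed to 23.5 and 65.7 RPKM in sh003, 14.1 to 18.1 in sh004 and 23.5 in control, and the 7 adrenergic markers to 1229 and 1276 in sh003, 790 to 962 in sh004 and 790 in control. Their part in the members' difference, and that of the proliferation genes, was not tested. In bulk RNA, fewer cells of a type and less RNA per cell cannot be told apart.

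At day 7 of retinoic acid, some members rose and others fell. Averaged over control, sh003 and sh004 cells, with no batch term, 4 of 35 members rose (BHLHE40, DDIT4, BNIP3L and ALDOC) and 5 fell (EGLN3, SLC2A1, HK2, ENO1 and PKM), where 8.81% of all 19461 genes rose and 5.67% fell. With the batch numbers of the titles as a block, 9 rose and 9 fell, where 19.1% of all genes rose and 12.1% fell. The added ones were KDM3A, ADM, ANGPTL4, CA12 and PFKFB4 among those that rose and TPI1, GAPDH, PGAM1 and LDHA among those that fell. Of the 9 that rose with the block, 7 are of the hypoxia arm, and of the 9 that fell, 8 are of the glucose arm. Without the block 3 of 16 hypoxia members rose and 1 fell, and no test compared the arms. With median-ratio scaling in place of library totals the split was 2 up and 6 down, or 7 up and 11 down with the block. That scaling moved the median change of all genes in control cells from 0.15 to 0.03. No day 7 library without retinoic acid is among the samples, so 7 days of culture and the drug cannot be told apart.

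Of the 19 glucose genes tested, 4 fell and 1 rose without the block, and 8 fell and 2 rose with it. HK2 lay at 20.1, 24.1 and 19.2 RPKM in control at day 0 (batches 1, 2 and 3) and at 11.2 and 12.1 at day 7 (batches 1 and 2). In sh003 it lay at 18.9, 15 and 17.6, then at 10.6, 11.3 and 9.30, given as sh1, then sh2 of batch 1 and of batch 2. Later lists of 3 sh003 values keep this order. In sh004 HK2 lay at 27.1 and 27.6, then 14.7 and 26.1 (sh1 and sh2). Day 7 was below day 0 within each group, though sh004 sh2 was nearly level, and HK2 fell by 0.66 ± 0.12 on the log2 scale (adjusted p = 0.0060 without the block). SLC2A1 lay at 22.8, 22.1 and 17.5 in control at day 0 and 14.5 and 9.58 at day 7, at 15.2 to 21.6 and then 12.8 to 18.6 in sh003, and at 18.7 and 19.8, then 13.4 and 18.1 in sh004. It fell by 0.44 ± 0.13 (adjusted p = 0.048), with overlap in sh003 alone.

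LDHA lay at 46.7, 89.6 and 79.0 RPKM in control at day 0 and 23.8 and 40.1 at day 7. In sh003 it lay at 62.3, 28.2 and 72.7, then 32.9, 18.4 and 35.5, and in sh004 at 86.9 and 96.1, then 43.2 and 86.9. Batch 1 was the lower one throughout, and only with the block did LDHA pass, falling by 0.83 ± 0.15 (adjusted p = 0.0033, against 0.057 without it). ENO1 ran from 303 to 514 over the 8 day 0 libraries (median 371) and from 193 to 357 over the 7 of day 7 (median 288), falling by 0.51 ± 0.13 (adjusted p = 0.029). PKM, pyruvate kinase, ran from 187 to 258 and then from 120 to 184, with no overlap of the days, and fell by 0.39 ± 0.11 (adjusted p = 0.032). PGAM1 fell by 0.50 ± 0.07, GAPDH by 0.41 ± 0.10 and TPI1 by 0.32 ± 0.10 with the block (adjusted p = 0.00086, 0.012 and 0.038), and not without it (0.68, 0.26 and 0.50). Over day 0 and then day 7, GAPDH had medians of 404 and 300.2 RPKM and TPI1 of 165 and 136, with overlapping ranges.

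ALDOC rose against that run, at 3.97, 6.87 and 4.40 RPKM in control at day 0 and 10.7 and 7.71 at day 7. In sh003 it lay at 5.98, 4.99 and 4.74, then 8.58, 10.1 and 8.24, and in sh004 at 4.03 and 4.23, then 8.57 and 13.6. All day 7 values lay above all day 0 values, and it rose by 0.94 ± 0.14 (adjusted p = 0.0026). PFKFB4 rose by 0.52 ± 0.15 with the block only (adjusted p = 0.027, against 0.074), from 1.49 to 2.82 at day 0 to 2.28 to 4.5 at day 7. Days did not overlap for 3 members in all, BHLHE40, ALDOC and PKM, as for 2.22% of all genes.

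BHLHE40 had the largest rise. It lay at 0.175, 0.139 and 2.06 RPKM in control at day 0 and 4.22 and 3.17 at day 7, at 2.04, 0.946 and 0.588 and then 5.19, 8.08 and 8.04 in sh003, and at 0.804 and 0.201, then 3.32 and 4.30 in sh004. The high day 0 values, 2.06 and 2.04, are both of batch 3, which has no day 7 library. The rise was 2.14 ± 0.33 without the block (adjusted p = 0.0030) and 2.48 ± 0.19 with it. DDIT4 lay at 2.33, 3.01 and 8.34 in control at day 0 and 5.98 and 4.35 at day 7, at 12.0, 4.45 and 3.51 and then 12.2, 10.1 and 5.58 in sh003, and at 4.95 and 1.97, then 37.2 and 15.2 in sh004. Batch 3 was again the high one at day 0, and DDIT4 rose by 1.21 ± 0.36 (adjusted p = 0.048). BNIP3L rose by 0.50 ± 0.15 (adjusted p = 0.0498), from 14.5 to 28.8 over day 0 to 20.2 to 28.9 at day 7.

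EGLN3 was the hypoxia gene that fell. It lay at 3.72, 2.63 and 7.18 RPKM in control at day 0 and 1.15 and 0.654 at day 7, at 11.3, 4.15 and 6.27 and then 3.09, 3.26 and 4.05 in sh003, and at 7.69 and 4.14, then 2.55 and 1.23 in sh004. It was lower at day 7 within every group, by 1.35 ± 0.27 in the mean, without the block (adjusted p = 0.0087). ANGPTL4 rose with the block by 1.03 ± 0.32 (adjusted p = 0.033), ADM by 0.74 ± 0.19 (0.017), CA12 by 0.52 ± 0.16 (0.030) and KDM3A by 0.34 ± 0.11 (0.034), and none of the 4 passed without it. ANGPTL4 ran from 0.756 to 7.36 RPKM over day 0 (median 1.87) and from 1.85 to 14.1 over day 7 (median 5.43), and KDM3A from 3.77 to 6.5 (median 3.84) and then from 4.11 to 6.15 (median 5.48). ADM and CA12 are low, at 0.402 to 2.81 and 0.0773 to 3.47 RPKM. VEGFA was not called: it lay at 3.77, 6.51 and 5.04 in control at day 0 and 2.23 and 2.08 at day 7, while sh004 sh2 went from 3.23 to 8.93.

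In the 6 pairs of libraries with the same batch and shRNA on both days, 9 of 35 members were higher at day 7 in every pair and 8 lower in every pair, beside 17.7% and 12.7% of all genes. The 9 were KDM3A, BHLHE40, DDIT4, ADM, ANGPTL4, CA12, BNIP3L, PFKFB4 and ALDOC, and the 8 were EGLN3, SLC2A1, HK2, GAPDH, PGAM1, ENO1, PKM and LDHA.

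**Figure D3:**
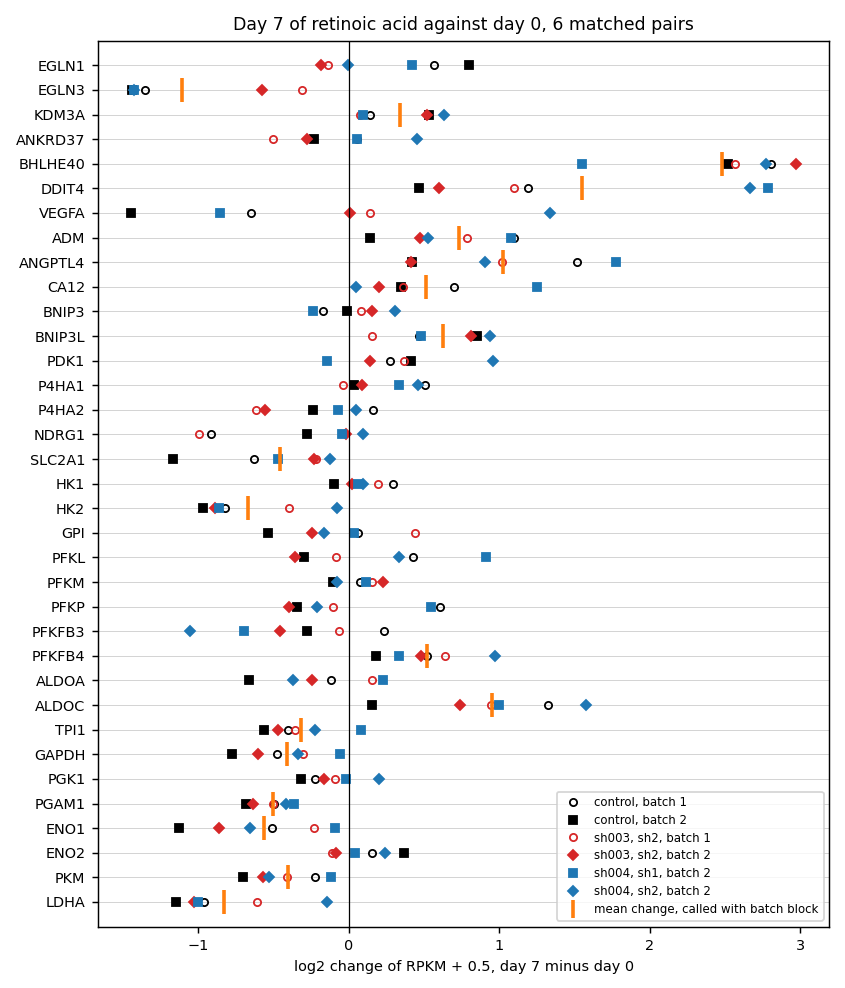
log2 change of RPKM + 0.5 from day 0 to day 7 in the 6 pairs with the same batch and shRNA, 1 point per pair, for the 35 tested members. Orange bars give the mean change over cell groups where it was called with the batch block; BHLHE40 stands farthest right at 2.48 and EGLN3 farthest left at -1.11.

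Taken by cell group, fewer members passed. In control cells 0 of 35 were called by limma without the block, where 0.704% of genes rose and 0.252% fell, while 9 had an unadjusted p under 0.05 and voom on recovered reads called 0. With the block 1 rose (BHLHE40) and 5 fell (EGLN3, SLC2A1, PGAM1, ENO1 and LDHA), where 5.03% of genes rose and 2.65% fell. In sh003 cells BHLHE40 rose (2.23 ± 0.51, adjusted p = 0.049; 1.57% of genes rose and 0.786% fell), and with the block HK2, PGAM1 and LDHA fell too (8.65% of genes rose and 5.63% fell). BHLHE40 was lost in sh003 cells without the pair of libraries whose tags contradict their titles, and in 11 of the 15 fits that left out 1 library, adjusted p reaching 0.178. It stayed called without the control or the sh003 library of batch 3 at day 0 and without either sh004 library of day 7. In sh004 cells 0 were called without the block (0.252% and 0.128% of genes), voom called 0 and 7 were at an unadjusted p under 0.05. With the block BHLHE40 and DDIT4 rose (1.42% and 0.683%). Whether a knockdown changed the response was tested directly: 0 members were called for sh003 and 0 for sh004 by limma (0% of all genes in each), and with the block 0 and 0 (0% and 0.0103%). At an unadjusted p under 0.05 there were 0 and 1 without the block, and voom called none. The 1 is DDIT4, whose day 7 change was larger in sh004 than in control by 2.39 ± 0.94 (adjusted p = 1). Next in sh004 came VEGFA (1.29 ± 0.68), PFKFB3 (-0.80 ± 0.47) and SLC2A1 (0.49 ± 0.34), and in sh003 EGLN1 (-0.65 ± 0.32), SLC2A1 (0.54 ± 0.31), ENO2 (-0.56 ± 0.37) and EGLN3 (0.89 ± 0.62).

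The lists are counted here without the block, where 8.81% of all genes rose and 5.67% fell. Of the HIF list, HIF1A rose at day 7, from 38.0 to 82.2 RPKM over day 0 (median 45.4) to 56.4 to 128 (median 97.5), by 0.85 ± 0.20 (adjusted p = 0.016), and USP20 and HIF1AN rose with it. None of the 14 fell. Of the 30 other hypoxia targets tested, 5 rose, among them VLDLR and PPFIA4, and 1, HILPDA, fell. Of the lactate and pyruvate genes 1 of 18 rose and 5 fell, including LDHB, and of 27 oxidative phosphorylation genes none rose and 6 fell. All 10 proliferation genes fell. Their sum lay at 427 to 898 RPKM at day 0 and 167 to 572 at day 7. Of the 8 amino acid stress genes 4 fell, and of the 6 adrenergic markers tested, 3 fell. The part of these lists in the members' changes was not tested.

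CASC15 knockdown in monolayers left no member called. In sh003 against control, limma called 0 of 35 at day 0 (0.00514% of all genes) and 0 at day 7 (0%). In sh004 against control it called 0 at day 0 (0%) and 0 at day 7 (0%). At an unadjusted p under 0.05 there were 3, 2, 0 and 4, and voom called none. With the block the members' counts were again 0, where 0.252%, 0.00514%, 0% and 0.226% of genes were called. At day 7 the median member difference was 0.24 in sh003 and 0.37 in sh004, beside -0.09 and -0.15 over all genes. The comparisons at day 7 share 2 control libraries. Groups did not overlap for 4 members in sh003 and 4 in sh004 at day 0 (9.02% and 17.8% of all genes) and for 10 and 13 at day 7 (22.8% and 33% of all genes).

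The members with the widest gaps were few. ANGPTL4 lay at 1.49, 1.73 and 1.22 RPKM in control at day 0 and at 7.36, 6.68 and 3.95 in sh003, with no overlap (1.68 ± 0.50, adjusted p = 0.57). At day 7 it lay at 5.19 and 2.49 in control and 7.88, 14.1 and 5.43 in sh003 (1.12 ± 0.56, adjusted p = 0.722). In the spheres the order was the reverse, with the control above both sh003 libraries. EGLN3 and CA12 also lay above control in all 3 sh003 libraries at day 7, by 1.52 ± 0.46 and 1.07 ± 0.55 (adjusted p = 0.566 and 0.730). DDIT4 at day 7 lay at 5.98 and 4.35 in control and 37.2 and 15.2 in sh004 (2.12 ± 0.69, adjusted p = 0.525), and VEGFA at 2.23 and 2.08, against 3.22 and 8.93 (1.16 ± 0.51, adjusted p = 0.603). PGAM1 lay at 8.45, 74.0 and 65.3 in control at day 0 and 86.0 and 79.9 in sh004, the 8.45 being of batch 1. It differed by 1.24 at day 0 and 1.89 at day 7 in sh004 without the block and by 0.20 and 0.37 with it, all sh004 libraries being of batch 2.

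**Figure D4:**
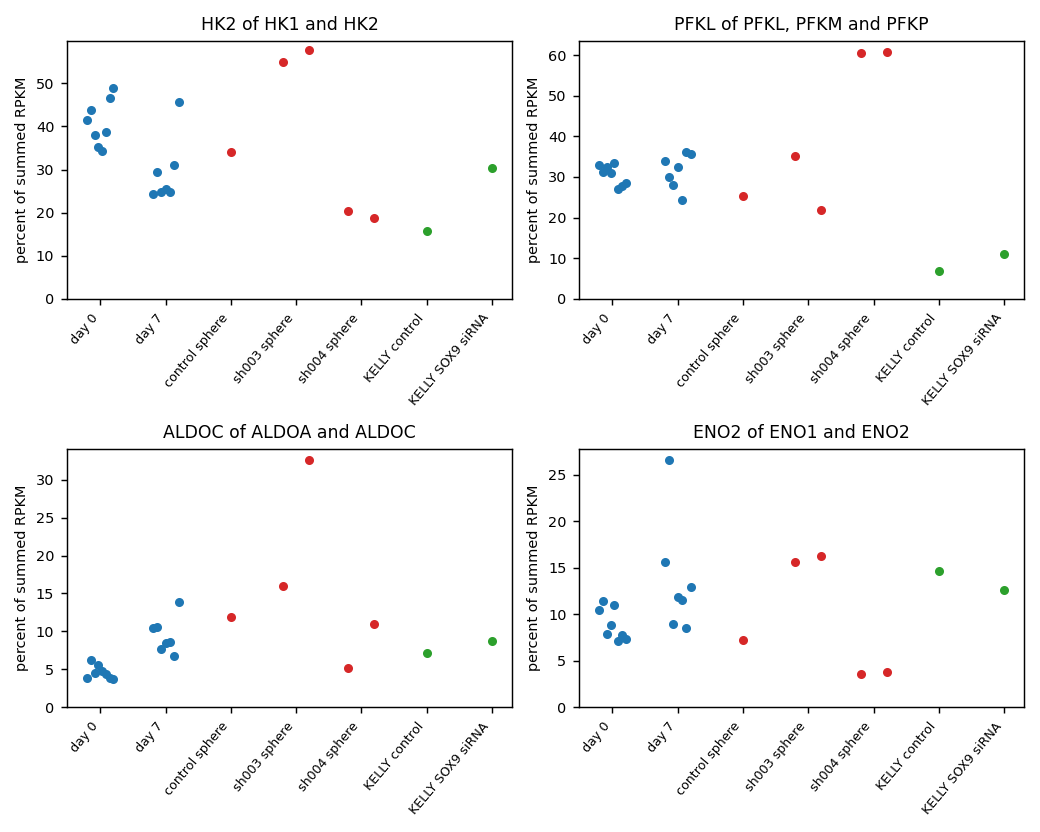
Share of 1 isozyme in the summed RPKM of its enzyme, in percent, 1 point per library, over 8 day 0, 7 day 7, 5 sphere and 2 KELLY libraries. The HK2 share is highest in the sh003 spheres (54.9 and 57.8%), and the PFKL share in the sh004 spheres (60.6 and 60.8%).

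Isozyme shares, which need no scaling between libraries, described the same cells. The HK2 share of hexokinase 1 and 2 ran from 34.4 to 48.9% over day 0 (median 40.1%) and from 24.3 to 45.8% over day 7 (median 25.5%). The ALDOC share of aldolase A and C ran from 3.72 to 6.25% and then from 6.68 to 13.9%, without overlap. ENO2 took 7.07 to 11.4% of enolase 1 and 2 and then 8.50 to 26.6%. PFKL took 27.2 to 33.4% of phosphofructokinase and then 24.3 to 36.1%, around the same level. SLC2A3 was at most 1.21% of SLC2A1 and SLC2A3 in any SH-SY5Y library and 4.29 and 5.55% in the KELLY pair.

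In KELLY cells with the SOX9 siRNA, 8 of 33 members measured lay over 1.5-fold higher and 1 over 1.5-fold lower, on the log2 scale of RPKM + 0.5, where 7.27% of 14340 genes were higher and 4.46% lower. There is 1 library per siRNA, so there is no test and intervals cover counting error only. VEGFA lay at 6.32 RPKM with control and 11.0 with SOX9 siRNA, a read ratio of 1.74 (95% exact interval 1.65 to 1.83). PDK1 lay at 0.506 and 1.71, a ratio of 3.37 (2.86 to 3.98), and ANGPTL4 at 0.380 and 1.16, a ratio of 3.05 (1.89 to 5.08) on 24 and 69 reads. EGLN3 lay at 3.06 and 6.56, and BHLHE40 at 1.67 and 3.87. These are hypoxia genes, and 5 of the 13 measured in that arm were past 1.5-fold higher, with 1 lower. Measured means 1 RPKM or more in at least 1 library. PDK1 and ANGPTL4 reached that only with SOX9 siRNA, and CA12, the lower one, only with control. Each was counted through the library where it is high, so its place in the counts supports nothing.

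Among the glucose genes HK2 lay at 14.8 and 26.3 RPKM, PFKL at 5.80 and 9.11 and PFKFB4 at 2.44 and 4.18, with read ratios of 1.78, 1.57 and 1.71. The other 17 stayed within 1.5-fold: SLC2A1 lay at 31.0 and 30.9, GAPDH at 641 and 599 and ENO1 at 555 and 561. CA12 was the lower member, at 2.22 and 0.911, a ratio of 0.41 (0.34 to 0.49). HK2 took 15.8% of hexokinase 1 and 2 with control and 30.3% with SOX9 siRNA, HK1 lying at 79.0 and 60.5. LDHA, a named enzyme of the pathway and not past the fold, lay at 3.46 and 3.07 in KELLY against 18.4 to 111 in the 20 SH-SY5Y libraries, while LDHB lay at 647 and 587. Outside the members EPAS1 lay at 1.81 and 4.51, HIF1A at 147 and 115 (a read ratio of 0.78) and ARNT at 11.6 and 9.55. Of 12 HIF subunits and controllers measured, 2 were past 1.5-fold higher (EPAS1 and CITED2) and 0 lower. The hypoxia target STC1 lay at 17.7 and 36.3, and 4 of 26 other hypoxia targets measured were past 1.5-fold higher and 1 lower. The amino acid stress list had 3 of 8 past 1.5-fold higher (ASNS, CHAC1 and TRIB3), with a median log2 ratio of 0.39 beside 0.37 in the hypoxia arm and 0.05 over all genes. The proliferation sum was 854 and 1009 RPKM in the same pair. The part of either list in the members' ratios was not tested.

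**Figure D5:**
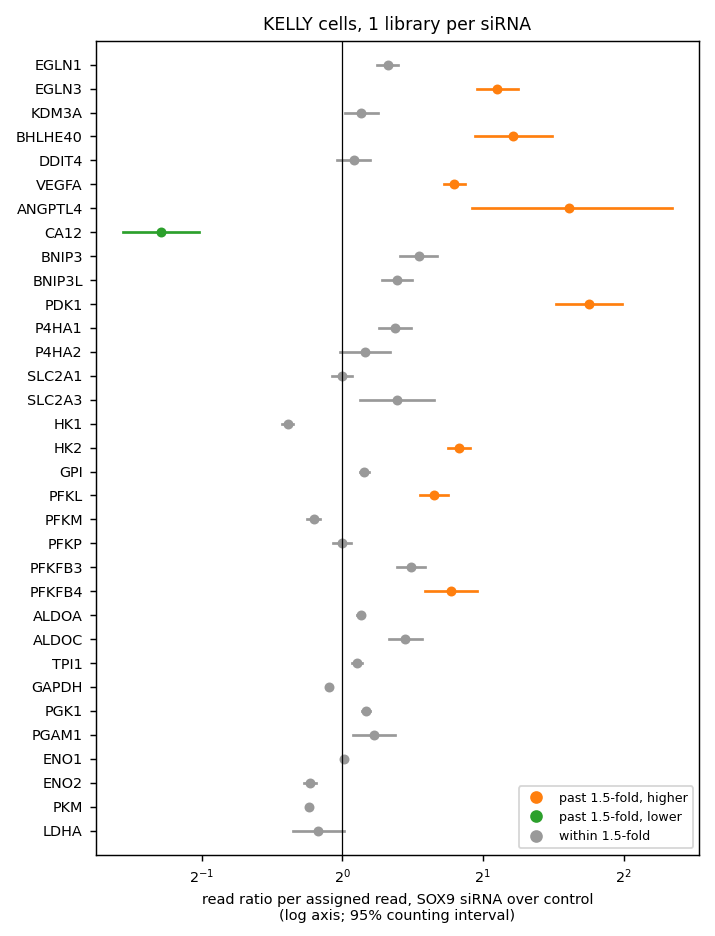
Read ratio per assigned read, SOX9 siRNA over control, on a log axis with 95% exact counting intervals, for the 33 members measured in KELLY cells, 1 library per siRNA. PDK1 at 3.37 and ANGPTL4 at 3.05 lie farthest right and CA12 at 0.41 farthest left. Each of these reached 1 RPKM in only 1 library.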

How the data were processed

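RNA-seq of 22 libraries was read from 3 tables of RPKM deposited by the authors (15 monolayer, 5 sphere and 2 KELLY libraries). The authors' tools, as listed in the submitters' processing notes, include TopHat, Subread and featureCounts on hg19, and versions are not given in the sources used here. Total RNA was depleted of ribosomal RNA and made into stranded libraries, per the labels' protocols. Whole reads were recovered from the deposited RPKM and gene lengths, all within 0.01 of a whole number. In the deposited sphere RPKM the totals rotate over 10 values from gene to gene (25.59 to 62.08 M), so sphere RPKM were recomputed with each library's own total. Genes at RPKM 1 or above in 2 libraries were tested with limma 3.58.1 (R 4.3.3, trend) on log2(RPKM + 0.5), all groups of a table in 1 fit, with Benjamini-Hochberg adjustment over all genes. The control sphere, a single library, was assumed to vary like the knockdown pairs. Titles give batches: deviations from group means of same-batch control and sh003 libraries had correlations of 0.72 to 0.94, and those from different batches of -0.92 to 0.74, batches 2 and 3 being alike and batch 1 apart. Centring small groups pushes such values below 0. As the titles name the batch, a fit with it as block stands beside the main one. Libraries were grouped by title; the differentiation tag contradicts it in 2 sh003 libraries, and the sh004 sh2 sphere has no culture tag. The limma script was tested on simulated data. Members and lists were chosen with earlier results of these data known. The genes named are, for each comparison, members called in either fit (KELLY: past 1.5-fold) and members whose groups do not overlap and differ by 1 or more on the log2 scale, or, where there are none, the 4 with the smallest p. KELLY read ratios have exact (Clopper-Pearson) 95% intervals, which cover counting error only. Alternatives were pseudocount 1, no filter, median-ratio factors, voom, the deposited sphere RPKM, the block, and each library left out.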

Additional observations from a re-analysis of the deposited data

How the results depend on the processing

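At 11.9 to 62.1 M reads CA9 and SLC2A3 stayed under the filter in SH-SY5Y. Of the called members' directions, 1 turned: PFKM between sphere knockdowns was 0.0767 on the deposited sphere RPKM. In that comparison the members called numbered 19, 0 without the filter (0 of all genes), 1 on the deposited RPKM and 0 to 20 with 1 library left out. For the mean day 7 change they numbered 9, 4 without the filter, 5 without the 2 sh003 libraries with contradicting tags, 18 with the replicate block, 18 with the block and median-ratio factors, 4 to 9 with 1 library left out and 11 to 18 (14, 15, 16 or 17 among them) with 1 left out under the block. The replicate block gave 6 in control cells (from 0), 4 in sh003 (from 1) and 2 in sh004 cells (from 0), and with median-ratio factors 8, 4 and 2. In sh003 cells 0 remained without the filter, with median-ratio factors, with voom and without those 2 libraries. Leaving out 1 library gave 0 to 1 in control, 0 to 2 in sh003 and 0 in sh004 cells, and under the block 0 to 10, 1 to 6 and 0 to 6. For sh003 against control at day 0 the block with median-ratio factors gave 1, and leaving out 1 library 0 to 1 (under the block 0 to 3). At day 7 the block with 1 library left out gave 0 to 2 in sh003 and 0 to 1 in sh004. The replicate block changed no other count. The block with another scaling, the block with a library left out and the length trend were added after the data were seen. The causes were not tested.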
